A study of Canis lupus familiaris with 18 samples.

Results

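The genes described here are the 6 methyl-CpG-binding domain genes MBD1 to MBD6 and 3 genes of the BAP1 complex, BAP1, ASXL1 and ASXL2, in high grade oligodendroglioma (HGO) of pet dogs. They are 9 of the 29993 genes listed in the deposited counts, found by their symbols, and all 9 passed the filter on low counts. MBD6 was chosen by its lower level in French bulldogs in these same libraries, so its difference between the breeds is given as a description without a test. The other 8 genes were chosen by name, as relatives or partners of MBD6.

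Proteins with a methyl-CpG-binding domain were named for a fold that in several of them reads methylated cytosine in DNA. MBD2 and MBD3 are alternative subunits of the NuRD complex, which joins a chromatin remodeler to histone deacetylases. MBD1 represses methylated promoters, and MBD4 is a DNA glycosylase that removes thymine from mismatches left when methylated cytosine is deaminated. MBD5 and MBD6 are close relatives that bind the Polycomb repressive deubiquitinase complex (PR-DUB), in which the catalytic subunit BAP1 and a scaffold, ASXL1 or ASXL2, remove ubiquitin from histone H2A.

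RNASeq was performed on formalin-fixed, paraffin-embedded prosencephalic HGO tissue in 18 libraries, each labelled as 1 dog. Of these, 11 were from French bulldogs, and 4 boxers and 3 Boston terriers, a pair of related brachycephalic breeds, served as the comparison group. The tumors had been resected before treatment in clinical trials, and they were compared with each other, with no normal brain analysed here. Ages are not in the labels and entered no comparison. The study reports younger French bulldogs on average, a greater share of females among them, and tumor sites that differed between the groups. It could not match the groups, so age, sex and site were not separated from breed here. The study asked whether HGO of French bulldogs differs in its transcripts from HGO of these breeds.

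Totals on genes were 8212452 to 13169880 counts per library, and 1 gene without a symbol took 17.4% to 33.4% of them. In the labels, French bulldog 2 and French bulldog 8 have 1 case number, and their column names differ only in the last letter. Thus these libraries may be 2 pieces from 1 dog. They were counted as 2 in every n = 11 below. If they are 1 dog, the p-values and standard errors are too small and the intervals too narrow. With their counts summed, edgeR called 0 genes between the groups in place of 1. Over all genes the median absolute log2 difference between these libraries was 0.20, while the other 54 pairs of French bulldogs had 0.34 to 1.22. French bulldog 6 stood apart by its cell markers. The summed normalized CPM (counts scaled by library size and TMM factor) of the 7 oligodendrocyte lineage markers listed, of 8 looked for, were 174 in French bulldog 6 and 2179 to 8862 in the other 17 libraries, with OLIG2 at 0 counts. The 8 macrophage and microglia markers summed to 5995 CPM in that library and to 44.1 to 273.5 CPM in the others. Without it, the French bulldogs and the comparison group had medians of 131 and 109 CPM for the macrophage list, of 4118 and 3252 CPM for the oligodendrocyte list, of 1947 and 2039 CPM for astrocytes, of 209 and 212 CPM for neurons, of 237 and 319 CPM for endothelium and of 2.99 and 1.57 CPM for T cells. The part of these differences in the values below was not tested. The names of the comparison libraries carry the numbers S18 to S21 (boxers 1, 3 and 4 and Boston terrier 2) or S1 to S3 (boxer 5 and Boston terriers 6 and 7). The French bulldog libraries carry numbers from S1 to S12, so S1 to S3 occur in both groups. What the numbers mark is not stated, and if French bulldog and comparison libraries were prepared separately, preparation and breed cannot be told apart.

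MBD6 (ENSCAFG00000031556) was low in every French bulldog and high in all but 1 dog of the comparison group. In French bulldogs its level was lowest at 26.9 CPM, had a median of 36.0 CPM and reached 42.2 CPM. The boxers had 59.3 (boxer 1), 49.7 (boxer 3), 47.7 (boxer 4) and 61.3 CPM (boxer 5), and the Boston terriers had 36.4 (Boston terrier 2), 59.3 (Boston terrier 6) and 62.4 CPM (Boston terrier 7). Thus 6 of the 7 comparison libraries lay above every French bulldog, and the groups overlapped through Boston terrier 2 alone. All 11 French bulldogs lay below the mean of the comparison group.

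**Figure D1:**
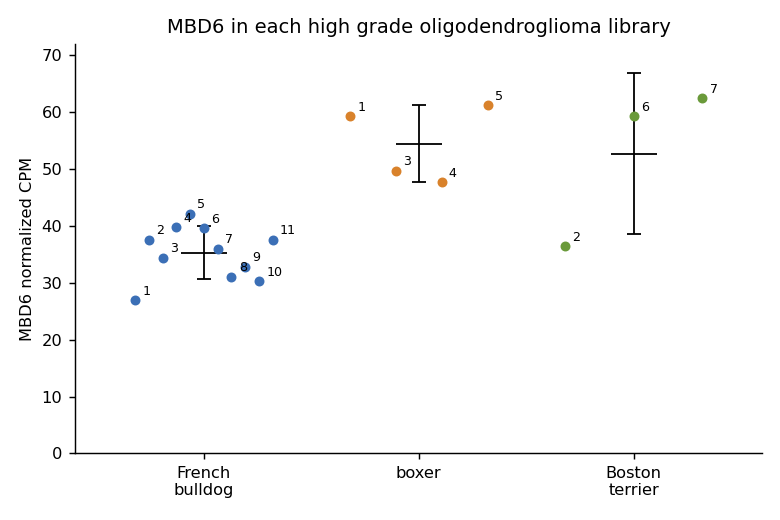
MBD6 in each of the 18 libraries by breed, in CPM normalized by TMM, with the number of the dog beside each point and the mean and SD of each breed as bars. French bulldogs sit between 26.9 and 42.2 CPM, and Boston terrier 2, at 36.4 CPM, is the comparison library within that range.

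The mean of MBD6 was 35.3 CPM ± 4.66 (SD, n = 11) in French bulldogs and 53.7 CPM ± 9.55 (SD, n = 7) in the comparison group. The log2 fold change was -0.61 with a standard error (SE) of 0.13, a fold of 0.657. These means rest on 298 to 427 counts per French bulldog library and 387 to 754 counts per comparison library. Against the boxers alone MBD6 had a log2 fold change of -0.63 (SE 0.15) and against the Boston terriers alone -0.57 (SE 0.19). Against the 4 comparison libraries numbered S18 to S21 it was -0.45 (SE 0.16), and against the 3 numbered S1 to S3 it was -0.78 (SE 0.16). It was -0.62 with French bulldog 6 left out and French bulldogs 2 and 8 summed, close to the value over all libraries.

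Across all genes, edgeR's quasi-likelihood test called 1 of 16495 (0.00606%) at an adjusted p under 0.05, and none of the 9 genes was that gene. DESeq2 called 58 of 20850 (0.278%), with MBD6 among them and none of the other 8, and it is a call of this kind for which MBD6 was selected. No gene of the 9 had groups without overlap, against 9 of 16495 genes in all (0.0546%), of which 8 were lower in French bulldogs (0.0485%) and 1 was higher (0.00606%). At an unadjusted p under 0.05, edgeR found 1744 genes (10.6%), 586 lower (3.55%) and 1158 higher (7.02%) in French bulldogs, and none of the other 8 genes was among them. The log2 fold change was below 0 in 46.3% of all genes tested and in 5 of these 8, namely MBD1, MBD3, MBD5, BAP1 and ASXL2.

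**Figure D2:**
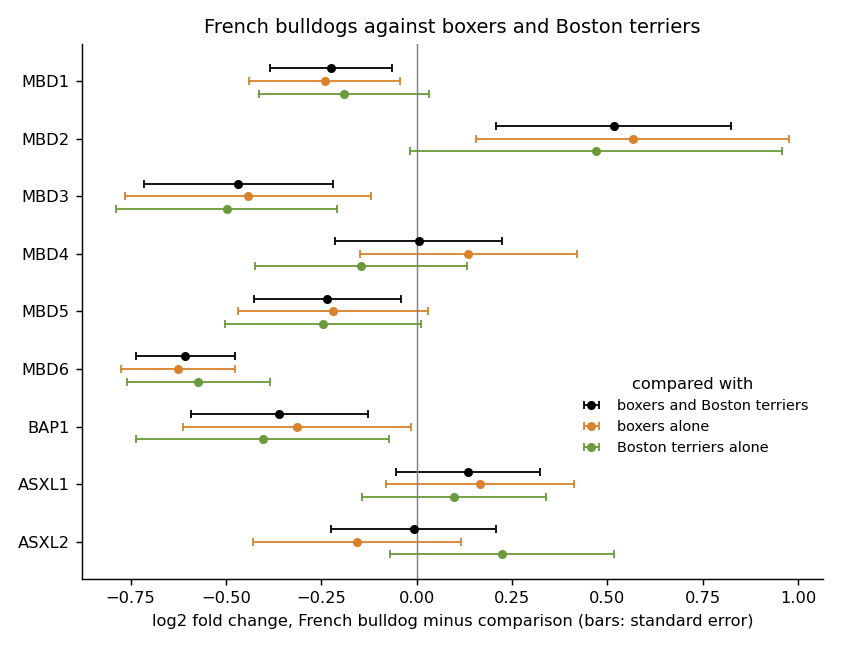
Log2 fold change of the 9 genes in French bulldogs (x axis, bars are the SE) against both breeds together, the boxers alone and the Boston terriers alone. MBD6 lies between -0.63 and -0.57 in all 3 comparisons, while MBD4 and ASXL2 change sign between the breeds compared.

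The nearest relative of MBD6, MBD5 (ENSCAFG00000005534), overlapped widely between the groups. It ranged from 45.2 CPM (French bulldog 11) to 128.6 CPM (French bulldog 2) in French bulldogs with a median of 96.2 CPM. In the boxers it was 102.8, 119.7, 75.3 and 139.2 CPM, and in the Boston terriers it was 127.5, 119.0 and 88.3 CPM, in the order in which they are numbered. Only boxer 5 lay above every French bulldog. The means were 93.7 CPM ± 26.3 (SD, n = 11) and 110.3 CPM ± 22.6 (SD, n = 7), and the log2 fold change was -0.23 (SE 0.19, 95% interval -0.64 to 0.17, edgeR adjusted p = 0.673). The interval reached past the fold change of MBD6, so a difference of the same size in MBD5 was not excluded at this spread. Within libraries, the count ratio of MBD6 to MBD5 had a median of 0.372 in French bulldogs (0.243 to 0.831) and 0.498 in the comparison group (0.286 to 0.707). On the log2 scale the ratio was -1.36 ± 0.50 (SD, n = 11) and -1.03 ± 0.44 (SD, n = 7), a gap smaller than the spread within either group.

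BAP1 (ENSCAFG00000009520), the deubiquitinase, had its lowest values in 3 French bulldogs, 26.03 CPM in French bulldog 6, 30.0 CPM in French bulldog 2 and 33.2 CPM in French bulldog 8. In this group its median was 47.2 CPM and its highest value 83.4 CPM. The boxers had 86.4, 57.2, 50.1 and 75.4 CPM and the Boston terriers 78.8, 80.0 and 58.0 CPM. Thus 6 French bulldogs lay below every comparison library, and the other 5 lay within the range of the comparison group. The means were 54.1 CPM ± 20.5 (SD, n = 11) and 69.4 CPM ± 14.0 (SD, n = 7). For BAP1 the log2 fold change was -0.36 (SE 0.23, 95% interval -0.84 to 0.12, edgeR adjusted p = 0.580). It was -0.26 without French bulldog 6 and -0.22 with that library left out and French bulldogs 2 and 8 summed.

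The scaffold ASXL1 (ENSCAFG00000007219) was 67.5 to 144.0 CPM in French bulldogs. It was 86.4, 74.8, 61.6 and 129.6 CPM in the boxers and 113.9, 76.2 and 87.0 CPM in the Boston terriers. Here the fitted value lay above 0 (log2 fold change 0.13, SE 0.19, 95% interval -0.26 to 0.53, edgeR adjusted p = 0.837), and only French bulldog 2 exceeded every comparison library. The value of ASXL1 was 0.07 without French bulldog 2, 0.08 without boxer 4, 0.24 without boxer 5 and 0.08 with French bulldogs 2 and 8 summed, and it was 0.23 against S18 to S21 alone and 0.02 against S1 to S3 alone.

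Its paralog ASXL2 (ENSCAFG00000004241) had a mean of 69.6 CPM ± 24.7 (SD, n = 11) in French bulldogs and 70.0 CPM ± 18.6 (SD, n = 7) in the comparison group. Its log2 fold change was -0.01 (SE 0.22, 95% interval -0.46 to 0.45, edgeR adjusted p = 0.995), and its sign depended on the normalization. The 3 highest values were 114.1 CPM in French bulldog 2, 103.8 CPM in French bulldog 6 and 99.8 CPM in French bulldog 8, the same libraries in which BAP1 was lowest. In the other 8 French bulldogs ASXL2 was at most 69.0 CPM. Boxer 1 did not share this pattern, with 99.1 CPM of ASXL2 and the highest BAP1 of all libraries, 86.4 CPM. The count ratio of ASXL1 to ASXL2 was 0.983 to 2.03 in French bulldogs and reached 2.21 in the comparison group, where its median was 1.20.

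Of the PR-DUB partners that are not among the 9 genes, 5 of 6 were listed and tested, OGT being not listed under that symbol. None passed the test in either direction by edgeR or DESeq2. By edgeR all 5 had log2 fold changes below 0, with a median of -0.18, where 46.3% of all genes were below 0 and their median was 0.04. HCFC1, at -0.01 (SE 0.14) by edgeR, was above 0 by DESeq2. The smallest unadjusted p-values among them belonged to FOXK2, a forkhead factor that recruits BAP1 (log2 fold change -0.13, SE 0.13), and KDM1B, a histone H3 lysine 4 demethylase (-0.19, SE 0.21).

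**Figure D3:**
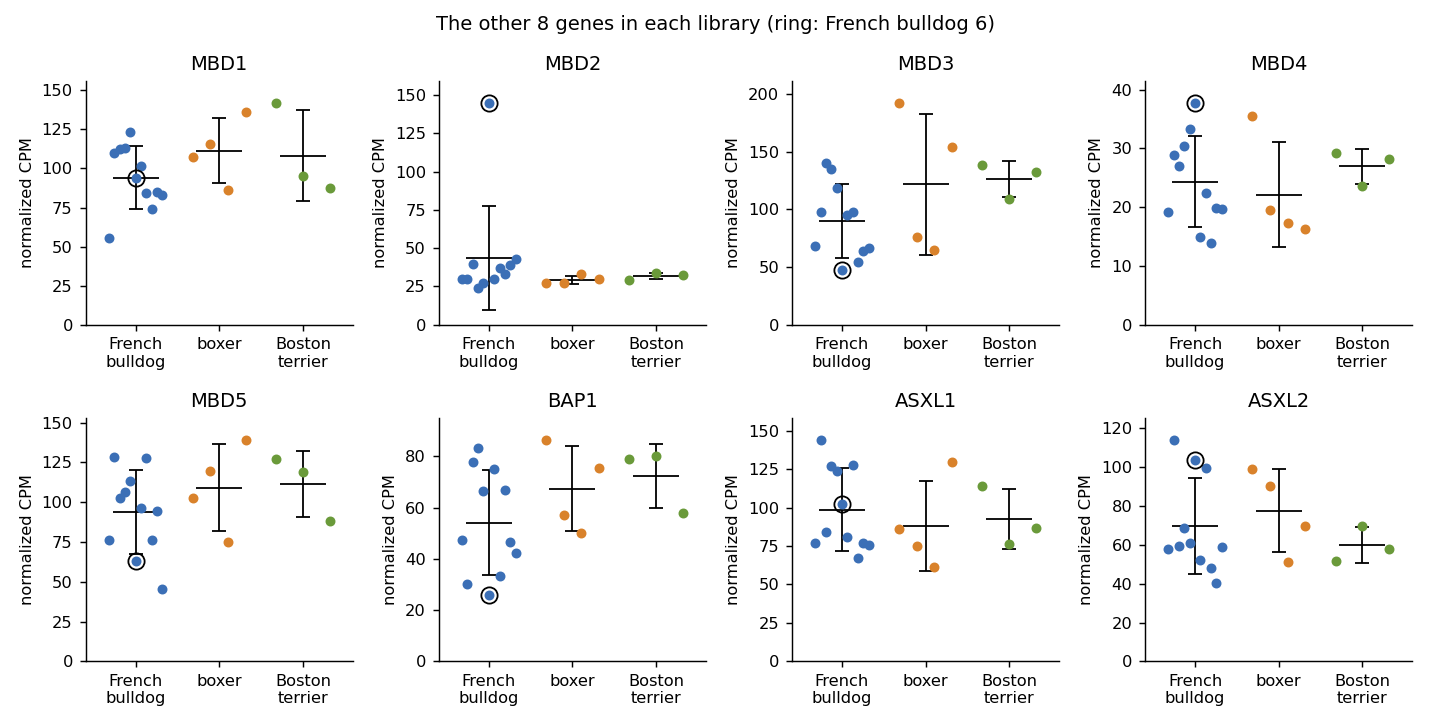
The other 8 genes in each library by breed, in CPM normalized by TMM, each panel with its own y axis from 0, the mean and SD of each breed as bars and a ring around French bulldog 6. MBD2 is 144.7 CPM in the ringed library and at most 42.7 CPM elsewhere, and in every panel the groups overlap.

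MBD2 (ENSCAFG00000032711) was high in a single library. French bulldog 6 had 144.7 CPM (1390 counts), while the other 10 French bulldogs had 24.0 to 42.7 CPM and the comparison group 27.0 to 33.6 CPM. French bulldog 6 is the library with 5995 CPM of macrophage and microglia markers. Its T cell markers summed to 75.8 CPM (at most 8.402 CPM elsewhere) and its astrocyte markers to 8.64 CPM (at least 339 CPM elsewhere). Its neuron markers summed to 0.729 CPM (at least 55.9 CPM elsewhere). Its endothelial markers, at 244 CPM, lay within the range of the other French bulldogs, 122 to 762 CPM. The part of any of these cells in the MBD2 level was not tested. In bulk tissue, a change in the share of cells of a type and a change in RNA per cell cannot be told apart. For MBD2 the log2 fold change was 0.52 (SE 0.31, edgeR adjusted p = 0.550) with all libraries and 0.16 (SE 0.13) without French bulldog 6. In DESeq2, which replaces extreme counts, it was 0.14.

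Without French bulldog 6, MBD2 averaged 33.3 CPM ± 6.04 (SD, n = 10) in French bulldogs and 30.3 CPM ± 2.72 (SD, n = 7) in the comparison group. Its SD within groups on the log2 scale dropped from 0.55 to 0.22 when that library was left out.

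MBD3 (ENSCAFG00000019503), which takes the place of MBD2 in NuRD, spread more evenly over the libraries. In French bulldogs it was 47.2 CPM at the lowest (French bulldog 6), 94.9 CPM at the median and 140.1 CPM at the highest. The boxers had 192.1, 76.4, 65.2 and 153.7 CPM, and the Boston terriers had 138.1, 109.1 and 132.3 CPM. Of the French bulldogs, 9 of 11 were below the comparison mean, and 2 boxers (1 and 5) were above every French bulldog. With means of 89.5 CPM ± 32.1 (SD, n = 11) and 123.9 CPM ± 44.2 (SD, n = 7), the log2 fold change was -0.47 (SE 0.25, 95% interval -0.99 to 0.05, edgeR adjusted p = 0.503). The 4 boxers alone spanned 65.2 to 192.1 CPM, a span wider than that of the 11 French bulldogs.

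The count ratio of MBD3 to MBD2 was 0.326 in French bulldog 6 and 1.56 to 5.61 in the other French bulldogs. In the comparison group it was 1.98 to 7.10. On the log2 scale it was 1.169 ± 1.101 (SD, n = 11) in French bulldogs, 1.45 ± 0.63 (SD, n = 10) without French bulldog 6 and 1.95 ± 0.61 (SD, n = 7) for boxers and Boston terriers. The gap was above the SD of the comparison group with French bulldog 6 and below it without.

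**Figure D4:**
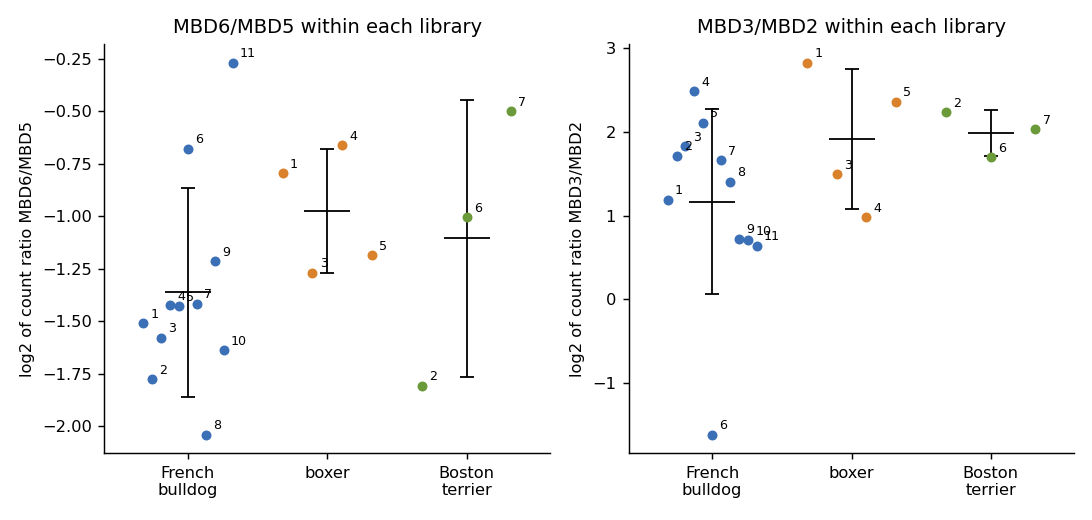
Log2 ratio of counts within each library for MBD6 to MBD5 (left) and MBD3 to MBD2 (right), by breed, with the number of the dog and the mean and SD of each breed. The groups overlap for both ratios, and French bulldog 6 lies apart for MBD3 to MBD2.

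Among the 12 other NuRD subunits tested (of 13, MTA3 not being listed under that symbol), none passed the adjusted threshold, 2 were higher and 1 was lower at an unadjusted p under 0.05, and the median log2 fold change was 0.19. The smallest unadjusted p-values were those of HDAC2, a histone deacetylase of the complex, and CHD3, one of its remodeler subunits. HDAC2 was 97.5 CPM ± 43.5 (SD, n = 11) and 56.6 CPM ± 15.4 (SD, n = 7), a log2 fold change of 0.78 (SE 0.26, edgeR adjusted p = 0.433). CHD3 was 264 CPM ± 66.1 (SD, n = 11) and 366 CPM ± 93.9 (SD, n = 7), a log2 fold change of -0.47 (SE 0.19, edgeR adjusted p = 0.433).

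MBD1 (ENSCAFG00000018928), the repressor at methylated promoters, ran from 55.6 to 123.1 CPM in French bulldogs. It was 107.4, 115.9, 86.5 and 136.2 CPM in the boxers and 141.8, 95.2 and 87.7 CPM in the Boston terriers. Boxer 5 and Boston terrier 2 were above every French bulldog, and 5 French bulldogs were below every comparison library. The means of 94.2 CPM ± 20.02 (SD, n = 11) and 110.1 CPM ± 22.4 (SD, n = 7) gave a log2 fold change of -0.22 (SE 0.16, 95% interval -0.56 to 0.11, edgeR adjusted p = 0.615).

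MBD4 (ENSCAFG00000004867), the glycosylase, had nearly equal means of 24.3 CPM ± 7.72 (SD, n = 11) and 24.2 CPM ± 7.07 (SD, n = 7). French bulldogs ran from 13.9 CPM (French bulldog 9) to 37.7 CPM (French bulldog 6), and the comparison group from 16.2 CPM (boxer 5) to 35.5 CPM (boxer 1). The log2 fold change was 0.01 (SE 0.22, 95% interval -0.45 to 0.46, edgeR adjusted p = 0.996), with a sign that depended on the processing. The 8 other base excision genes looked for around MBD4 were all tested, and none passed at an adjusted or an unadjusted p under 0.05. The smallest p-values among these belonged to the uracil glycosylase UNG (log2 fold change 0.37, SE 0.25) and the thymine glycosylase TDG (0.16, SE 0.18), which shares a substrate with MBD4.

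Other genes that read, write or erase DNA methylation were taken from lists. All 10 other readers of methylated DNA or holders of an MBD-like fold were tested, with 0 called, 0 higher and 2 lower at an unadjusted p under 0.05, and a median log2 fold change of 0.05. The 2 were ZBTB38 and ZBTB4, zinc finger proteins that bind methylated DNA. ZBTB38 was 158 CPM ± 43.8 (SD, n = 11) in French bulldogs and 237 CPM ± 32.6 (SD, n = 7) in the comparison group (log2 fold change -0.59, SE 0.18, edgeR adjusted p = 0.433). ZBTB4 was 96.3 CPM ± 35.9 (SD, n = 11) and 139 CPM ± 24.6 (SD, n = 7) (log2 fold change -0.53, SE 0.23, edgeR adjusted p = 0.436). Of the DNA methyltransferases and TET dioxygenases, 5 of 6 were tested (DNMT1 was not listed under that symbol) and none passed at either threshold. The smallest p-values were those of DNMT3B, a de novo methyltransferase (log2 fold change 0.26, SE 0.29), and TET2, which oxidizes methylcytosine (-0.14, SE 0.19).

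The next lists held Polycomb genes, of PRC1 complexes, which add ubiquitin to H2A, and of PRC2, which methylates histone H3, and other deubiquitinases of H2A. Of 15 Polycomb genes of both kinds, 14 were tested (BMI1 was not listed under that symbol), 0 were called, and 2 were higher at an unadjusted p under 0.05, with a median log2 fold change of 0.17. These were SUZ12, a core subunit of PRC2 (57.1 CPM ± 21.0, n = 11, against 40.0 CPM ± 7.71, n = 7, SD, log2 fold change 0.51, SE 0.20, edgeR adjusted p = 0.433), and PCGF5, a subunit of a PRC1 variant (0.45, SE 0.19, edgeR adjusted p = 0.434). Of the 5 other H2A deubiquitinases, none was called and 1 was lower at an unadjusted p under 0.05, USP21 (15.6 CPM ± 5.08, n = 11, against 22.1 CPM ± 3.69, n = 7, SD, log2 fold change -0.51, SE 0.21, edgeR adjusted p = 0.433). The next smallest p among the 5 belonged to USP3 (log2 fold change 0.15, SE 0.15, edgeR adjusted p = 0.757). Over all the lists, 59 genes other than the 9 were tested, of which 4 were higher and 4 were lower at an unadjusted p under 0.05, where all genes had 7.02% higher and 3.55% lower. None was called after adjustment by edgeR or DESeq2.

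Boxers were also compared with Boston terriers. None of the 17934 genes tested was called between these breeds (edgeR, 0%, with 381 or 2.12% at an unadjusted p under 0.05, and 0% of 27121 by DESeq2), and none of the 9 genes was among the 381. For MBD6, boxers averaged 54.5 CPM ± 6.79 (SD, n = 4) and Boston terriers 52.7 CPM ± 14.2 (SD, n = 3), with a log2 fold change in boxers of 0.04 (SE 0.21, 95% interval -0.41 to 0.49). These 7 libraries also took part in the choice of MBD6, which favours a gene on which they agree, so this value is a description. Without Boston terrier 2 the value was -0.16 (SE 0.22). Among the other 8 genes the log2 fold change in boxers ran from -0.29 (MBD4, SE 0.35) to 0.37 (ASXL2, SE 0.34), each with an edgeR adjusted p of 1. Without boxer 1 they were -0.61 for MBD4 and 0.23 for ASXL2.

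Within the comparison group, MBD6 was 59.3 to 62.4 CPM in the 3 libraries numbered S1 to S3 and 36.4 to 59.3 CPM in the 4 numbered S18 to S21. The log2 difference was 0.34 (SE 0.20, 95% interval -0.08 to 0.76), a description over libraries that took part in the choice of MBD6 and a comparison added after the data were seen. The other 8 genes differed between these library sets by -0.16 (MBD4) to 0.21 (ASXL1) on the log2 scale, each with an edgeR adjusted p of 1.

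The spread of MBD6 within groups is part of what selected it, since a call at a modest fold needs a small spread, and it is given as a description. Its SD within groups was 0.23 on the log2 scale, smaller than that of the other 8 genes, which ran from 0.32 (MBD1) to 0.55 (MBD2), and than the median of all genes, 0.64. Only 2.16% of all genes, and 4.80% of the 500 genes nearest to MBD6 in level, had a smaller SD. Without French bulldog 6 the SD of MBD2, 0.22, was slightly below that of MBD6. The group-centred log2 level of MBD6 had a Spearman correlation of 0.03 with total counts, 0.34 with the share of the most abundant gene and -0.38 with the TMM factor over the 18 libraries.

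With the group means removed, several of the 9 genes moved together over the 18 libraries. MBD5 and ASXL1 had the highest Spearman correlation, 0.78 (0.84 without French bulldog 6), followed by MBD1 and MBD5 at 0.69 (0.74) and MBD1 and ASXL1 at 0.67 (0.66). Correlations of MBD6 with the others ran from -0.04 (MBD2) to 0.43 (ASXL1 and ASXL2), with 0.11 for MBD5, 0.16 for BAP1 and 0.42 for MBD4. Without French bulldog 6 they ran from -0.34 (MBD2) to 0.53 (MBD3), with 0.28 for BAP1. With French bulldogs 2 and 8 summed, MBD6 had 0.55 with ASXL1 and 0.52 with ASXL2. BAP1 had -0.31 with ASXL2 (-0.09 without French bulldog 6) and 0.54 with MBD3 (0.51). MBD2 was at or below -0.03 with every other gene of the 9, and it had 0.08 with MBD4 when French bulldogs 2 and 8 were summed. MBD3 with MBD5 was 0.64, and 0.47 without French bulldog 6. The order of the pairs depended on a few libraries. With French bulldogs 2 and 8 summed, MBD1 with MBD5 was highest at 0.78 and MBD5 with ASXL1 was 0.72. Without French bulldog 6, MBD3 with MBD4 went from 0.46 to 0.74 and MBD3 with ASXL1 from 0.65 to 0.73. These are descriptions over libraries that share a normalization.

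**Figure D5:**
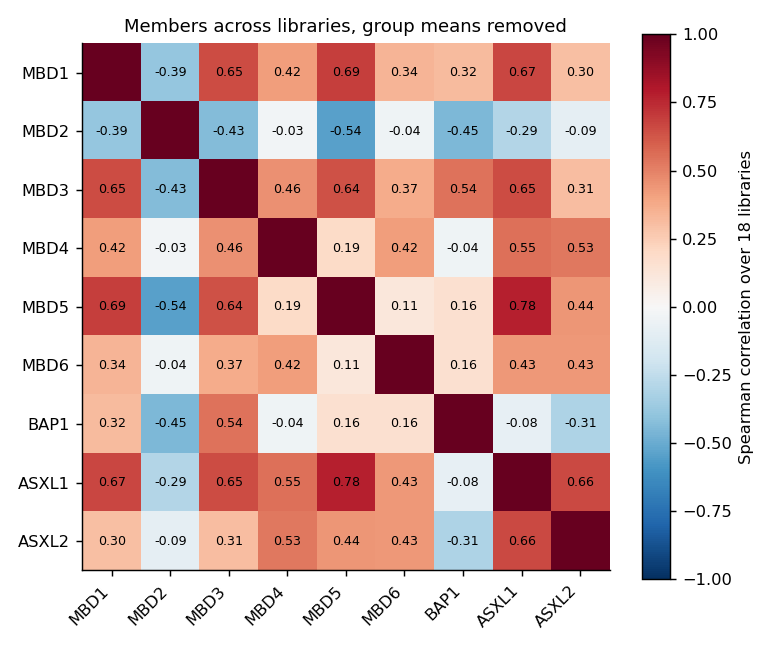
Spearman correlation between the 9 genes over 18 libraries after removal of the group means, on a color scale from -1 to 1. MBD1, MBD3, MBD5 and ASXL1 form a block at 0.64 to 0.78, the row of MBD6 holds values of at most 0.43 (0.53 without French bulldog 6), and the row of MBD2 is negative with all 18 libraries.

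The libraries with 1 case number, French bulldogs 2 and 8, were nearly equal in MBD3 (97.9 and 97.7 CPM) and MBD5 (128.6 and 127.7 CPM). Of the other 54 French bulldog pairs, 0 were closer in MBD3, 1 was closer in MBD5 and 5 were closer in BAP1. For MBD6 (37.6 and 31.0 CPM), 35 of the 54 pairs were closer. The number of closer pairs was 28 for MBD1, 22 for MBD2, 16 for MBD4, 14 for ASXL1 and 13 for ASXL2. Over the genes above a count floor in each pair, the chi-square per gene between these libraries was 11.7, and at least 41.0 in the other pairs. It used raw counts and library totals, without TMM. This difference is larger than sampling noise, but it does not tell 2 dogs from 2 pieces of 1 tumor. The dogs listed under these numbers in the study have the same age, sex and tumor site.

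The genes with a pattern most like MBD6, by Spearman correlation of group-centred log2 CPM over 18 libraries among 11583 genes with a symbol, were 7 listings of spliceosomal U RNAs and SND1, a nuclease domain protein. The U RNA listings were U6 (0.75, 0.72 and 0.71), U1 (0.74 and 0.73) and U4 (0.72 and 0.72), and SND1 had 0.72. In the same order, their mean levels were 0.901, 1.25 and 2.83 CPM (U6), 2.40 and 583 CPM (U1) and 141 and 1.84 CPM (U4). Most of these listings thus rest on few counts. Their log2 fold changes between the groups were 1.43, 1.44 and 1.49 (U6), 0.88 and 0.37 (U1) and 0.32 and 0.05 (U4). The fold change of MBD6 had the other sign. U RNA genes have many near-identical copies, so how the counting split reads among them is uncertain. Small RNAs by symbol numbered 318 of the ranked genes, and their median correlation with MBD6 was 0.34, while that of the other 11265 was -0.02. The total share of small RNAs in a library had -0.15 with MBD6. By the same measure MBD6 ranked ASXL2 424th, ASXL1 452nd, MBD4 476th, MBD3 758th, MBD1 925th, BAP1 2938th, MBD5 3656th and MBD2 6286th. The leading genes depended on the measure. With Pearson correlation or without centring, 0 of the 8 were shared, and among protein-coding symbols alone the list began with SND1 (0.72), TRA2A (0.71) and VPS13C (0.70).

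In the RefSeq annotation of another dog assembly, MBD6 overlaps DDIT3, a stress-response transcription factor. DDIT3 had a log2 fold change of -0.43 (SE 0.27, edgeR adjusted p = 0.571) and a correlation of 0.19 with MBD6. The other listed neighbours that were tested, MARS1, DCTN2, KIF5A and PIP4K2C, had log2 fold changes of -0.14 to -0.06. Whether reads in the overlap were counted by strand is not given in the sources used here, so reads of MBD6 and DDIT3 may not be fully separated. The annotation also overlaps MBD1 with CFAP53, and MBD3, MBD5, ASXL1 and ASXL2 with non-coding RNAs or pseudogenes.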

How the data were processed

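RNASeq libraries were made from formalin-fixed tissue with a stranded total RNA kit. The authors trimmed reads with Trimmomatic 0.33, mapped them with HISAT2 2.1.0 to the canFam6 dog assembly and deposited raw counts per gene from featureCounts, unnormalized. How strand and multi-mapped reads were handled is not given in the sources used here. Groups were taken from the breed labels. Breed rested on what the owners stated.

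Counts of all 18 libraries were normalized by TMM, filtered by filterByExpr (16495 of 29993 genes kept) and fitted with the quasi-likelihood F test of edgeR 4.0.16 in R 4.3.3, two-sided, without covariates, with Benjamini-Hochberg adjustment over all genes tested and a threshold of 0.05. SEs were derived as |log2 fold change| / √F. Boxers and Boston terriers were compared in a fit with 3 groups on all libraries (17934 genes). DESeq2 1.42.0 and limma-voom (limma 3.58.1) were alternatives. CPM are TMM-normalized, and log2 CPM used a prior count of 2. Intervals are at 95%. Recovery of known changes was checked on simulated data, at folds larger than that of MBD6 and without an outlier library. The check therefore does not bear on changes as small as that of MBD6. Total counts of 8212452 to 13169880 limit the precision of low genes, and counting error is one part of the spread between dogs.

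Named genes were the 9 genes, the 2 genes of each list with the smallest edgeR p, and the 8 genes most correlated with MBD6. The 9 genes and the lists were chosen with earlier results of these data known. Any other gene named (CFAP53, MARS1, DCTN2, KIF5A, PIP4K2C, DDIT3, TRA2A, VPS13C, HCFC1) was named for its position or under an alternative. OLIG2 was named as a marker at 0, chosen after its values were seen. OGT, MTA3, DNMT1 and BMI1 were named as list genes without a listed symbol. Where nothing else is stated, each library is counted as 1 sample. Gene lengths were not used, so levels were not compared between genes. No sequence is shown, since none of the study's assembly was used here. Names and neighbours came from RefSeq (UU_Cfam_GSD_1.0), a different assembly. Figures were drawn with Python 3.11.15 and matplotlib 3.10.9.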

Additional observations from a re-analysis of the deposited data

How the results depend on the processing

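The log2 fold change of MBD6 in French bulldogs stayed below 0 in all 14 alternatives and when each library was left out, between -0.68 (without Boston terrier 2) and -0.57 (without Boston terrier 7) in the latter. MBD1, MBD3, MBD5 and BAP1 stayed below 0 and MBD2 and ASXL1 above 0 in the same fits, with ranges on leaving out a library of -0.27 to -0.15, -0.56 to -0.33, -0.29 to -0.16, -0.44 to -0.26, 0.16 to 0.58 and 0.07 to 0.24. The value of MBD2 without French bulldog 6 was 0.16. ASXL2 turned positive with DESeq2 size factors (0.00996), no filter (0.0240), DESeq2 (0.00894), the most abundant gene left out (0.0253), Boston terriers alone (0.22) and S1 to S3 alone (0.0857), and ran from -0.10 to 0.10 on leaving out a library. MBD4 turned negative with upper quartile factors (-0.0105), a minimum of 10 counts (-0.0268), limma-voom (-0.0305), French bulldogs 2 and 8 summed (-0.00111) and French bulldog 6 also left out (-0.0930), Boston terriers alone (-0.15) and S18 to S21 alone (-0.0615), and ran from -0.0715 to 0.12. The cause was not tested.

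Between boxers and Boston terriers, leaving out a library gave -0.16 to 0.19 for MBD6, -0.0911 to 0.28 for MBD1, -0.37 to 0.13 for MBD3, -0.18 to 0.0921 for MBD5, -0.32 to 0.11 for ASXL1, -0.61 to -0.16 for MBD4 and 0.23 to 0.51 for ASXL2, and the count of genes called was 0 under each alternative, in the genes it tested. With the number of the library set as a term, MBD6 had 0.26 (SE 0.23).

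The count of genes called in French bulldogs was 1. It was 2 with upper quartile factors, limma-voom or the most abundant gene left out, 58 with DESeq2, and 0 with a minimum of 10 counts, French bulldogs 2 and 8 summed (with or without French bulldog 6), boxers alone, S18 to S21 alone or S1 to S3 alone. Leaving out a library gave 0 to 7 (7 without French bulldog 9, 3 without French bulldog 6, and 0 without most others). By edgeR, 1401 of 11469 genes with 10 counts in every library had an unadjusted p under 0.05. The replicate block over the numbers 1 to 7 gave 0 calls (967 genes at an unadjusted p under 0.05), -0.54 (SE 0.18) for MBD6 and 0.0594 for ASXL2. Samples of the same number had correlations of -0.5 to 0.21, so the numbers did not pair dogs. Of the 8 genes most like MBD6, 4 were shared without French bulldog 6, 0 with Pearson correlation, 0 without centring and 1 among protein-coding symbols. The protein-coding list, the joint removal of French bulldog 6 and sum of 2 and 8, and the contrast of library sets were chosen after seeing the data.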
